A study of Zonotrichia albicollis with 38 samples.

Results

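ESR1 encodes estrogen receptor alpha, and GREB1 encodes a cofactor of that receptor whose own gene is among those that estrogen induces most strongly in human breast cancer cells. The account below follows these 2 genes of the 15111 counted in brain RNA-seq libraries of male white-throated sparrows (Zonotrichia albicollis). They were picked by name with earlier results of these data known, and each was read from its single row of the count table in all 38 libraries. The series compared 10 white-striped (WS) males, which carry the inverted chromosome ZAL2m, with 9 tan-striped (TS) males, which lack it. Each bird gave a hypothalamic (HYP) and a medial amygdala (MeA) library from 4 pooled punches per region, so replicates are separate birds and both regions of a bird form a pair. All were free-living birds taken in the territorial season, the day after a staged intrusion with song playback, so no group is without that challenge. HYP punches took in the caudal preoptic area along with the anterior, ventromedial and paraventricular hypothalamus, and MeA was most but not all of the tissue in the MeA punches. By the labels' age codes 8 WS birds were ASY and 2 were SY, whereas 2 TS birds were ASY and 7 were SY. The labels' stage codes, which they do not define, were E in 8 WS birds, I in 1 and L in 1, and E in 6 TS birds, I in 1, L in 1 and L/I in 1.

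Estrogen receptor alpha is a nuclear receptor. When it binds estradiol it moves to regulatory DNA and recruits coactivators, and GREB1 protein is found in these complexes in human breast cancer cells. In the songbird brain estradiol is also made locally by aromatase, the product of CYP19A1, and the receptor is enriched in the preoptic area, the hypothalamus and parts of the medial amygdala, regions tied to song, courtship and aggression. ESR1 lies in the segment that is inverted in ZAL2m, and GREB1 lies on the same chromosome. The 2 morphs differ in territorial aggression.

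Library totals ran from 7150476 to 14482856 counts. A list of 17 hypothalamic marker genes, of which 11 were counted, summed to 639 to 1439 CPM (counts scaled to library size) in HYP of WS birds and 517 to 1512 in HYP of TS birds, against 10.9 to 21.6 in MeA of WS birds and 9.93 to 25.6 in MeA of TS birds. A list of 16 pallial markers, of which 13 were counted, ran the other way, at 709 to 890 CPM in HYP of WS birds and 755 to 894 in HYP of TS birds, against 2703 to 3105 in MeA of WS birds and 2646 to 3085 in MeA of TS birds. No counted marker of either list was at 0 in any group. Both lists thus separated HYP from MeA in the direction of the labels, but pallial markers do not single out the medial amygdala. Markers of the preoptic area and limbic subpallium, 10 of 11 counted, were lower in MeA than in HYP. They summed to 853 to 1123 CPM in MeA of WS birds and 870 to 1127 in MeA of TS birds. In HYP they summed to 1309 to 1602 CPM in WS birds and 1259 to 1653 in TS birds. How much of the MeA punches was medial amygdala was not tested. In MeA the summed leptomeningeal markers varied among birds, from 148 to 541 CPM in WS and from 74.3 to 572 CPM in TS, and their part in the results below was not tested. Of the genes of all 11 marker lists, 85 entries tested in HYP and 84 in MeA, none was called between the morphs with edgeR, and 5 in HYP and 4 in MeA had an unadjusted p under 0.05. Over all genes 0.796% of 11930 tested were called in HYP and 0.523% of 11672 in MeA, and 905 in HYP and 1033 in MeA had an unadjusted p under 0.05. In whole tissue, fewer cells of a type and less RNA per cell cannot be told apart.

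ESR1, the receptor gene, was higher in WS birds in MeA, where its level was low in both morphs, and did not pass the test between morphs in HYP. In HYP, ESR1 was at 12.3 CPM in the lowest WS bird, 15.9 at the WS median and 22.0 in the highest, against 10.6, 19.1 and 22.6 CPM in TS birds. The ranges overlapped along almost their whole length, and 1 of 10 WS birds lay above the TS median. Mean CPM was 16.4 ± 2.66 in WS and 17.7 ± 4.15 in TS (SD over 10 and 9 birds), and the log2 fold change of WS over TS was −0.12 (SE 0.126, adjusted p = 0.893 by edgeR).

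In MeA, ESR1 was at 0.808 CPM in the lowest WS bird, 1.35 at the median and 1.98 in the highest, against 0.240, 0.486 and 1.08 CPM in TS birds. Of the WS birds, 8 lay above every TS bird, and the overlap came from 1 TS bird of the ASY class. Mean CPM was 1.40 ± 0.387 in WS and 0.532 ± 0.255 in TS (SD over 10 and 9 birds), so that WS stood at 2.64 times the TS level. The log2 fold change of WS over TS was 1.36 (SE 0.247, adjusted p = 0.00755 by edgeR), the 28th smallest p of 11672 genes tested. In that comparison 0.308% of all genes tested were called higher in WS and 0.214% lower. On the chromosome that holds ESR1 the share called in either direction was 6.24%, against 0.0104% on the others. These levels rest on few reads, with 7 to 27 counts per library in WS and 2 to 11 in TS, or 137 counts over all WS libraries (exact 95% Poisson interval 115 to 162) and 49 over all TS libraries (36.3 to 64.8). The intervals cover counting error only. ESR1 passed the filter on low counts mainly through the WS libraries, where it was higher. With no such filter the log2 fold change was 1.36 (adjusted p = 0.0109 by edgeR). The call was lost with age class in the model (log2 fold change 1.27, adjusted p = 0.125 by edgeR) and among stage E birds (1.36, adjusted p = 0.166 by edgeR).

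**Figure D1:**
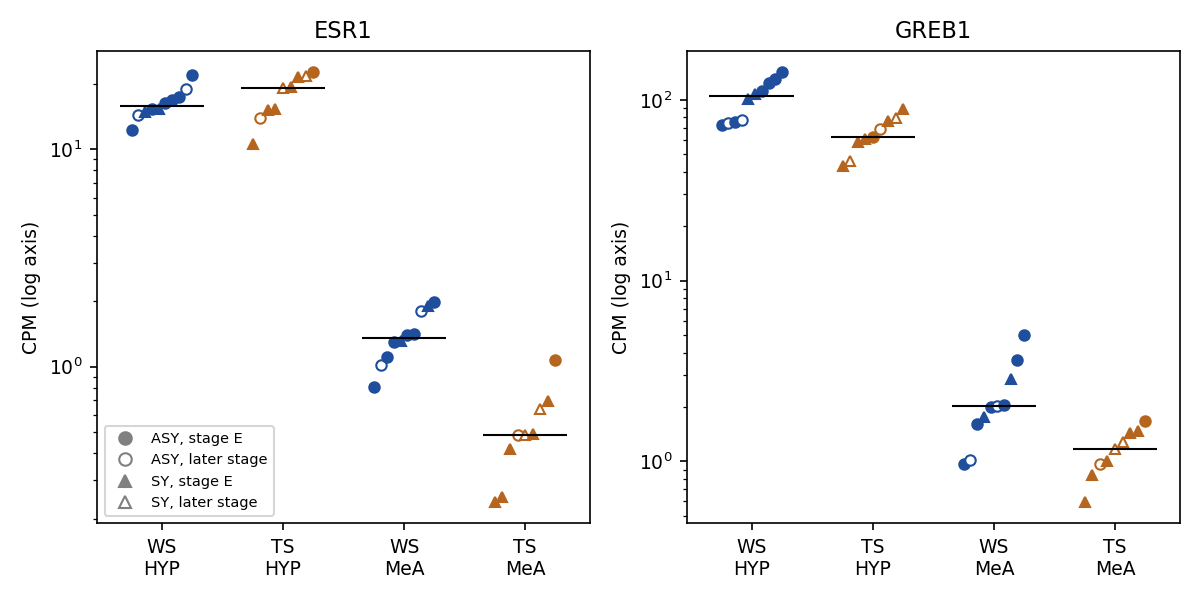
Levels of ESR1 (left) and GREB1 (right) in CPM on a log axis, with 1 point per bird, the median as a bar, and age class and stage by symbol. In MeA 8 of 10 WS birds lie above every TS bird for ESR1, and in HYP 6 of 10 lie above every TS bird for GREB1.

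GREB1, the receptor's cofactor and target gene, was higher in WS birds in HYP, the region in which ESR1 itself did not pass the test. In HYP, GREB1 was at 72.3 CPM in the lowest WS bird, 105 at the median and 142 in the highest, against 43.0, 62.0 and 88.7 CPM in TS birds. All 10 WS birds lay above the TS median and 6 lay above every TS bird, while the other 4 WS birds, at 72.3 to 77.2 CPM, lay within the TS range. Both WS birds of stages other than E were among those 4. Mean CPM was 102 ± 25.9 in WS and 65.0 ± 15.2 in TS (SD over 10 and 9 birds), a ratio of 1.57. The log2 fold change of WS over TS was 0.64 (SE 0.145, adjusted p = 0.0303 by edgeR), and of the 11930 genes tested in HYP 0.469% were called higher in WS and 0.327% lower. On the chromosome that holds GREB1 the share called in either direction was 9.37%, against 0.041% on the others. Depth behind the GREB1 values in HYP was 794 to 1728 counts per library in WS and 510 to 997 in TS. The call stood close to the threshold, since it was lost with age class in the model (0.66, adjusted p = 0.163 by edgeR). It was also lost when any of 11 of the 19 birds (5 WS and 6 TS) was left out, with 0.58 to 0.66 and edgeR adjusted p up to 0.0662.

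In MeA, GREB1 was at 0.969 CPM in the lowest WS bird, 2.02 at the median and 4.98 in the highest, against 0.598, 1.17 and 1.67 CPM in TS birds. Here 7 of 10 WS birds lay above every TS bird. The highest of them also had the highest GREB1 in HYP and the highest ESR1 in MeA of the WS birds, but the lowest ESR1 in HYP (12.3 CPM). Mean CPM was 2.29 ± 1.23 in WS and 1.16 ± 0.340 in TS (SD over 10 and 9 birds). The log2 fold change of WS over TS was 0.97 (SE 0.284), which did not pass the test (adjusted p = 0.198 by edgeR). Without that bird it was 0.74 (adjusted p = 0.406 by edgeR), and without the 2 libraries at each end of the first principal component, that bird's among them, it was 0.62 and likewise not called by edgeR (unadjusted p = 0.0371). The MeA library of that bird also had the highest summed red blood cell markers (73.5 CPM) and, among WS birds, the highest leptomeningeal sum (541 CPM), and their part in its values was not tested. Counts were 11 to 68 per library in WS and 6 to 17 in TS.

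Because age class and morph were unevenly combined, the levels were also set side by side within each age class. In HYP, GREB1 was at 102 and 108 CPM in the 2 SY WS birds and at 43.0 to 88.7 CPM in the 7 SY TS birds. It was at 72.3 to 142 CPM in the 8 ASY WS birds and at 62.0 and 68.9 CPM in the 2 ASY TS birds. The morphs therefore did not overlap within either age class, as was the case, with WS higher, for 0.402% of the genes tested in HYP. That share does not take the chromosome of the genes into account. In MeA, ESR1 was at 1.31 and 1.90 CPM in SY WS birds and 0.240 to 0.698 CPM in SY TS birds, with no overlap. Such a gap among SY birds, with WS higher, was found for 3.32% of the genes tested in MeA. That share applies to GREB1 in MeA, below, as well. Among ASY birds ESR1 was at 0.808 to 1.98 CPM in WS and at 0.483 and 1.08 CPM in TS, with overlap. For GREB1 in MeA the SY birds did not overlap, at 1.77 and 2.87 CPM in WS and 0.598 to 1.48 CPM in TS, and the ASY birds did, at 0.969 to 4.98 CPM in WS and 0.966 and 1.67 CPM in TS. With 2 birds in the smaller group of each age class, no test was made within age classes.

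Both genes were far higher in HYP than in MeA in every bird of both morphs. The HYP to MeA ratio of ESR1 was 6.21 in the lowest WS bird, 12.6 at the median and 20.3 in the highest. In TS birds it was 20.9, 30.1 and 77.2, so the morphs did not overlap in this ratio, though the highest WS and lowest TS values lay close together. Those 2 values rest on 7 and 11 ESR1 reads in MeA, so the separation itself hangs on few reads. A ratio lower in every WS bird than in every TS bird was found for 0.0167% of the 11959 genes above 0 in all libraries. That share does not take the chromosome of the genes into account. The ratio of GREB1 was 28.6, 47.0 and 80.4 in WS birds and 29.1, 68.3 and 98.2 in TS birds, with broad overlap. With the bird as a block, the log2 fold change of HYP over MeA for ESR1 was 3.51 in WS (SE 0.136, adjusted p = 2.48e-16 by edgeR) and 4.99 in TS (SE 0.168, adjusted p = 2.41e-17 by edgeR). For GREB1 it was 5.48 in WS (SE 0.122, adjusted p = 1.61e-20 by edgeR) and 5.76 in TS (SE 0.143, adjusted p = 1.47e-19 by edgeR). Regional differences were the rule in these tissues, since of the 12737 genes tested 38.4% were called higher and 34.7% lower in HYP in WS, and 37.5% higher and 33.7% lower in TS. By p, however, GREB1 ranked at place 22 in WS and 28 in TS, and ESR1 at 276 in WS and 123 in TS.

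The regional contrast of ESR1 was smaller in WS than in TS. The difference of the 2 log2 fold changes, WS minus TS, was −1.48 (SE 0.259, adjusted p = 0.0377 by edgeR), the third smallest p of 12737 genes. Only 0.0236% of the genes, 3 in number, were called in that comparison, ESR1 among them, and all 3 were lower. All 3 lie on the chromosome that holds ESR1 and GREB1, where 0.328% of 915 tested genes were called, against 0% of 10346 elsewhere. For GREB1 the difference was −0.28 (SE 0.238, adjusted p = 0.703 by edgeR). Read as a share, the median level in MeA was 8.53% of that in HYP for ESR1 in WS and 2.54% in TS. The share for GREB1 was 1.92% in WS and 1.88% in TS, and for the summed hypothalamic markers 1.33% in WS and 1.34% in TS. The call on ESR1 was lost when any of 14 of the 19 birds (7 WS and 7 TS) was left out, with differences of −1.52 to −1.35 and edgeR adjusted p up to 0.140. It was also lost among stage E birds, 14 in number (−1.47, adjusted p = 0.294 by edgeR). No fit let the regional contrast differ by age class, which was unevenly combined with morph, so the part of age class was not tested.

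**Figure D2:**
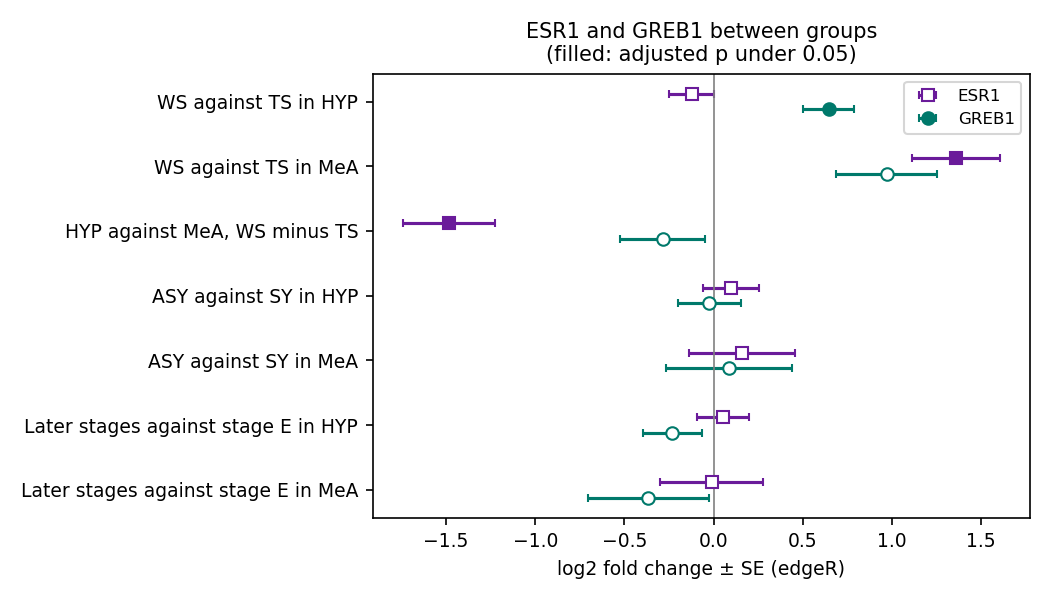
Log2 fold changes of ESR1 (squares) and GREB1 (circles) with their SE from the edgeR fits, filled where the adjusted p was under 0.05. HYP against MeA within each morph, called for both genes, is not drawn. The calls among the contrasts drawn are GREB1 between morphs in HYP (0.64), ESR1 between morphs in MeA (1.36) and the morph difference in the regional contrast of ESR1 (−1.48); no contrast of age class or stage was called.

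The genes were also set against each other within libraries, as the number of GREB1 reads per ESR1 read. This ratio, added after the levels of both genes were seen, does not correct for gene length. It is given between morphs as a description, without a p-value, and age class was not taken into account. In HYP it was 3.92 in the lowest WS bird, 6.12 at the median and 11.6 in the highest, against 2.0, 3.86 and 7.28 in TS birds. All 10 WS birds lay above the TS median, and 4 lay above every TS bird. The mean log2 ratio was higher in WS by 0.73 (SE 0.244). In MeA the ratio was 0.688, 1.69 and 2.60 in WS birds and 0.857, 2.40 and 4.00 in TS birds, and 8 of 10 WS birds lay below the TS median. That difference was −0.62 on the log2 scale (SE 0.314), and it rests on as few as 2 ESR1 reads in a library.

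**Figure D3:**
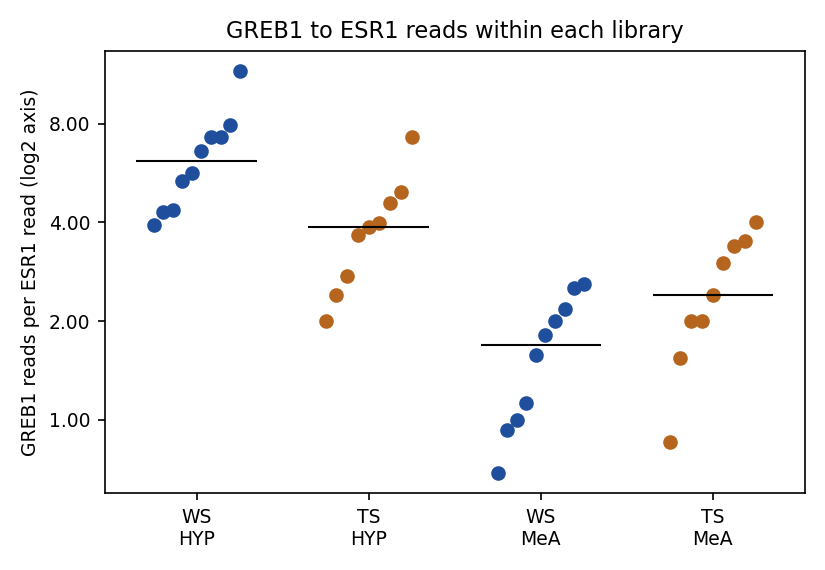
GREB1 reads per ESR1 read in each library on a log2 axis, with 1 point per bird and the median as a bar. The WS median is above the TS median in HYP (6.12 and 3.86) and below it in MeA (1.69 and 2.40).

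No relation between ESR1 and GREB1 across birds passed a test in either region. In HYP, with the morph means removed, Pearson's r between the log2 levels of the genes was −0.25 and Spearman's rho −0.17 over 19 birds (permutation p = 0.315 and 0.503). Within the 10 WS birds r was −0.25 (rho −0.37, permutation p = 0.501 and 0.295), and within the 9 TS birds it was −0.26 (rho −0.017, exact permutation p = 0.494 and 0.982). The sign in TS birds rested on a pair of them, since r was 0.039 without the 2 birds farthest from the median of ESR1.

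In MeA the relation had the other sign, with r of 0.39 and rho of 0.37 over 19 birds (permutation p = 0.0945 and 0.133). It was 0.46 within WS (rho 0.39, permutation p = 0.184 and 0.261) and 0.35 within TS (rho 0.37, exact permutation p = 0.363 and 0.336). Without the 2 farthest birds these values of r were 0.29 over all birds, 0.18 in WS (rho −0.024) and −0.29 in TS (rho −0.11). The relation within each morph thus rested largely on its 2 farthest birds. The level of each gene in HYP was also set against its level in MeA of the same bird, and neither relation passed. For ESR1 r was 0.028 (rho 0.037, permutation p = 0.915 and 0.884), and −0.058 without the 2 farthest birds. For GREB1 r was 0.43 (rho 0.29, permutation p = 0.0766 and 0.242), and 0.64 without the 2 farthest birds. None of the 8 relations passed after Benjamini-Hochberg adjustment, where the smallest adjusted p of r was 0.378, and in MeA the few counts per library limit what could be seen.

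**Figure D4:**
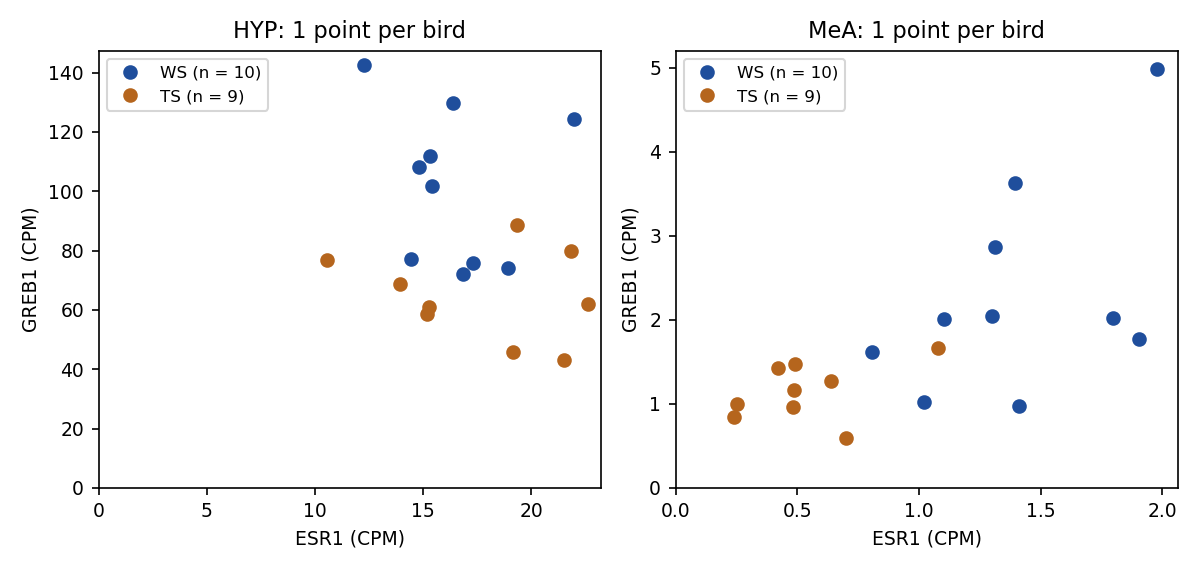
ESR1 against GREB1 in CPM, 1 point per bird, in HYP (left) and MeA (right). In HYP 6 of 10 WS birds lie above every TS bird in GREB1, with r of −0.25 over all birds once morph means are removed. In MeA 8 of 10 WS birds lie to the right of every TS bird in ESR1 and 7 of 10 lie above every TS bird in GREB1, with r of 0.39.

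For each gene the 5 others with the highest positive correlation over the 19 HYP libraries are named. Likeness was Pearson's r of log2 levels with morph means removed, over 10130 genes of at least 5 CPM on average, and it describes libraries that share dissection and depth. For ESR1 the closest was WDHD1, a DNA replication factor, with r of 0.84. PRICKLE1, a planar cell polarity gene, followed at 0.80, then an unnamed gene listed as LOC102068481 at 0.78, the transcription factor gene TCF12 at 0.78 and MEGF10, an engulfment receptor of glia, at 0.77. For GREB1 they were NALCN, the sodium leak channel, at 0.79, NASP, a histone chaperone, at 0.77 and CDC42SE2, an effector of the small GTPase CDC42, at 0.77. SEMA4D, a semaphorin, stood at 0.76 and SLC40A1, the iron exporter ferroportin, at 0.75. GREB1 came at place 7761 in the order for ESR1, and ESR1 at place 8495 in the order for GREB1. In MeA both genes averaged under 20 counts per library, and no such order was made.

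Neither gene passed the test between age classes or stages with morph in the model. In HYP, ESR1 was at 12.3 to 22.6 CPM in the 10 ASY birds (median 16.6) and 10.6 to 21.8 CPM in the 9 SY birds (median 15.4), and the log2 fold change of ASY over SY was 0.10 (SE 0.157, adjusted p = 0.993 by edgeR). GREB1 in HYP was at 62.0 to 142 CPM in ASY birds (median 76.4) and 43.0 to 108 CPM in SY birds (median 76.9), with a log2 fold change of −0.02 (SE 0.179, adjusted p = 0.998 by edgeR). The ranges of the age classes overlapped along most of their length for both genes. In MeA, ESR1 was at 0.483 to 1.98 CPM in ASY birds and 0.240 to 1.90 CPM in SY birds, and GREB1 at 0.966 to 4.98 CPM in ASY birds and 0.598 to 2.87 CPM in SY birds. With morph in the model their log2 fold changes were 0.16 (SE 0.298) for ESR1 and 0.09 (SE 0.351) for GREB1 (adjusted p = 0.999 by edgeR for each). No gene at all passed between age classes with edgeR (0% of 12220 genes tested in HYP and 0% of 12002 in MeA), where 578 genes in HYP and 437 in MeA had an unadjusted p under 0.05, and DESeq2 called 1 gene in HYP and 0 in MeA.

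The 5 birds labelled I, L or L/I, called later stages here, were set against the 14 of stage E in the same way. The labels do not define these codes, so that order in time is an assumption. In HYP, GREB1 was at 45.9, 68.9, 74.1, 77.2 and 79.7 CPM in later-stage birds, against a lowest of 43.0, a median of 82.8 and a highest of 142 CPM in stage E birds. The later-stage birds all lay within the stage E range and below its median, which pools the morphs. Among TS birds the median was 68.9 CPM in the 3 of later stages and 61.5 CPM in the 6 of stage E. Only in WS were all later-stage birds below the median of their own morph. There the 2 later-stage birds were at 74.1 and 77.2 CPM, and the median of the 8 stage E birds was 110 CPM. The log2 fold change of later stages over stage E, with morph in the model, was −0.23 (SE 0.166, adjusted p = 0.949 by edgeR). In MeA GREB1 was at 0.966 to 2.02 CPM in later-stage birds and 0.598 to 4.98 CPM in stage E birds, a log2 fold change of −0.36 (SE 0.337, adjusted p = 0.728 by edgeR). ESR1 in HYP was at 13.9 to 21.8 CPM in later-stage birds and 10.6 to 22.6 CPM in stage E birds, and in MeA at 0.483 to 1.80 CPM in later-stage birds and 0.240 to 1.98 CPM in stage E birds. Its log2 fold change was 0.05 in HYP (SE 0.146, adjusted p = 0.998 by edgeR) and −0.01 in MeA (SE 0.288, adjusted p = 0.992 by edgeR). No gene was called by stage with edgeR in either region (0% of those tested), where 689 genes in HYP and 1065 in MeA had an unadjusted p under 0.05, and DESeq2 called 14 in HYP and 0 in MeA.

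The rest of the estrogen pathway was described through a pair of gene lists. The first held 48 genes known to respond to estrogen, mostly from human breast cancer cells and a few from rodent brain, of which 37 were counted. Between morphs in HYP, 1 of its 35 genes tested was called, 2.86% against 0.796% of all genes, and the median log2 fold change was −0.02 against −0.00044 over all genes. That gene was TPBG, which encodes the trophoblast glycoprotein 5T4, with 76.7 ± 9.55 CPM in WS birds and 61.9 ± 5.75 CPM in TS birds (SD over 10 and 9 birds). Its log2 fold change was 0.31 (SE 0.071, adjusted p = 0.0367 by edgeR). Of the 35 genes, 7 had an unadjusted p under 0.05 by edgeR, against 905 of all 11930 genes tested in HYP. In MeA 1 of 31 was called, 3.23% against 0.523% of all genes, with a median of 0.02 against 0.0011 over all genes. It was KCNK5, a background potassium channel gene, lower in WS with 3.50 ± 1.04 CPM against 6.01 ± 1.12 CPM in TS birds. Its log2 fold change was −0.78 (SE 0.162, adjusted p = 0.0238 by edgeR). Of the 31 genes, 4 had an unadjusted p under 0.05 by edgeR, against 1033 of all 11672 genes tested in MeA. TPBG and KCNK5 lie on the chromosome that holds ESR1 and GREB1, as do MYB and PKIB among the tested genes of the list. All 4 were among the 7 with an unadjusted p under 0.05 in HYP. On that chromosome 9.37% of tested genes were called in HYP and 6.24% in MeA, against 0.041% and 0.0104% on the others. The shares over all genes do not take this into account, so they do not set the list apart. The progesterone receptor gene PGR, a classical target of estrogen receptor alpha, did not pass between morphs in HYP (a log2 difference of −0.13 with SE 0.101, adjusted p = 0.852 by edgeR) and was too low to be tested in MeA.

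The second list held 44 genes of the receptor's machinery, of which 33 were counted: other estrogen receptors, enzymes of steroid synthesis, cofactors and chaperones. None of the 32 tested in either region was called between morphs with edgeR, against 0.796% of all genes in HYP and 0.523% in MeA. At such shares the absence of a call does not set the list apart. By the same test 1 in HYP and 2 in MeA had an unadjusted p under 0.05, against 905 of all 11930 genes and 1033 of all 11672. The median log2 fold changes were 0.0059 in HYP and 0.011 in MeA. ESR2, the gene of estrogen receptor beta, gave log2 fold changes of −0.20 in HYP (SE 0.127, adjusted p = 0.803 by edgeR) and 0.09 in MeA (SE 0.218, adjusted p = 0.925 by edgeR). The aromatase gene CYP19A1, which the gene table names for an identifier without a symbol in the count table, gave 0.08 in HYP (SE 0.166, adjusted p = 0.960 by edgeR) and 0.64 in MeA (SE 0.337, adjusted p = 0.588 by edgeR). GREB1L, the paralog of GREB1, gave 0.13 in HYP (SE 0.074, adjusted p = 0.762 by edgeR) and 0.09 in MeA (SE 0.111, adjusted p = 0.836 by edgeR). No gene of either list was called with edgeR by age class, by stage or in the morph difference of the regional contrast. Over all genes 0% were called by age class or stage, and 0.0236% of 12737 in the last. In the last, 6 estrogen-responsive and 3 machinery genes had an unadjusted p under 0.05 by edgeR, against 1321 of all genes.

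Most genes of both lists were called between regions, as were most genes overall. Of 36 estrogen-responsive genes tested, 17 were called higher and 15 lower in HYP in WS, and 19 higher and 13 lower in TS, 88.9% in each morph against 73.1% of all genes in WS and 71.2% in TS. PGR averaged 32.5 ± 6.49 CPM in HYP against 0.502 ± 0.367 CPM in MeA of WS birds (SD over 10 birds), a log2 fold change of 5.95 in WS and 6.55 in TS. It did not pass the filter on low counts in MeA alone, so the size of these fold changes rests on MeA levels near the floor. The neuropeptide genes PENK and GAL were also higher in HYP, by 3.72 and 6.58 on the log2 scale in WS and by 4.00 and 7.01 in TS. The growth factor gene IGF1 was lower in HYP, with log2 fold changes of −3.57 in WS and −3.66 in TS, as were ELOVL2, a fatty acid elongase gene (−1.42 in WS and −1.20 in TS), and ADCY9, an adenylyl cyclase gene (−1.32 in WS and −1.34 in TS).

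Of 33 machinery genes, 12 were called higher and 14 lower in HYP in WS, 78.8% in all against 73.1% of all genes. In TS 9 were called higher and 15 lower, 72.7% in all against 71.2% of all genes. CYP19A1 was higher in HYP by 2.21 in WS and 2.81 in TS on the log2 scale, ESR2 by 1.29 in WS and 1.57 in TS, GREB1L by 1.76 in WS and 1.73 in TS, and the immunophilin gene FKBP4, a cochaperone of steroid receptors, by 0.73 in WS and 0.64 in TS. The membrane estrogen receptor gene GPER1 was lower in HYP (−2.17 in WS and −1.83 in TS), as was the orphan receptor gene ESRRG (−1.24 in WS and −1.52 in TS). The coactivator gene NCOA7 was higher in HYP of WS birds by 0.63, and no morph difference in its regional contrast was called with edgeR. The largest edgeR adjusted p of these differences between regions was 4.11e-07, for ESR2 in WS.

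ESR1 and GREB1 lie on the same chromosome, 3 in the gene table of the assembly bZonAlb1.hap1, with 187 counted genes between them. This chromosome, which holds the segment inverted in ZAL2m, carried most of the genes that differed between morphs. In HYP 82 of its 875 tested genes were called (9.37%), against 4 of 9750 on the other chromosomes (0.041%). In MeA 53 of 849 were called (6.24%), against 1 of 9570 (0.0104%). A further 9 called genes in HYP and 7 in MeA had no chromosome in the gene table and are in neither share. Of the 20 counted genes nearest to ESR1, 10 on either side, 17 were tested in each region and none was called with edgeR. Of the 17, 5 in HYP and 4 in MeA had an unadjusted p under 0.05 by edgeR. Over all genes 905 of 11930 in HYP and 1033 of 11672 in MeA did. Log2 fold changes of WS over TS among these neighbours ran from −0.22 to 0.24 in HYP and from −0.22 to 0.38 in MeA, against 1.36 for ESR1 in MeA. The nearest were SYNE1, which encodes a nuclear envelope protein (0.24 in HYP and 0.04 in MeA), MYCT1 (0.22 in HYP and 0.38 in MeA), the mitochondrial translation gene RMND1 (0.19 in HYP and 0.17 in MeA) and the zinc finger gene ZBTB2 (0.03 in HYP and 0.05 in MeA).

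Of the 20 counted genes nearest to GREB1, 19 were tested in HYP and 18 in MeA, and 1 was called in each. In HYP it was NBAS, a gene of Golgi-to-ER transport, higher in WS by 0.15 on the log2 scale (SE 0.034, adjusted p = 0.0329 by edgeR). In MeA it was RRM2, which encodes a subunit of ribonucleotide reductase, higher in WS by 1.48 (SE 0.259, adjusted p = 0.00547 by edgeR), with 0.68 in HYP (SE 0.183, adjusted p = 0.103 by edgeR). With those called, 6 of the 19 in HYP and 3 of the 18 in MeA had an unadjusted p under 0.05 by edgeR. Over all genes 905 of 11930 in HYP and 1033 of 11672 in MeA did. On the whole chromosome 9.37% of tested genes were called in HYP and 6.24% in MeA. At such shares 1 call in each region does not set these neighbours apart. The nearest neighbours of GREB1 did not pass in either region. They were the lipid phosphatase gene LPIN1 (0.20 in HYP and −0.28 in MeA), the pseudokinase gene TRIB2 (−0.0018 in HYP and −0.14 in MeA), the repressor gene E2F6 (0.10 in HYP and −0.04 in MeA) and the kinase gene ROCK2 (0.09 in HYP and 0.0026 in MeA).

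**Figure D5:**
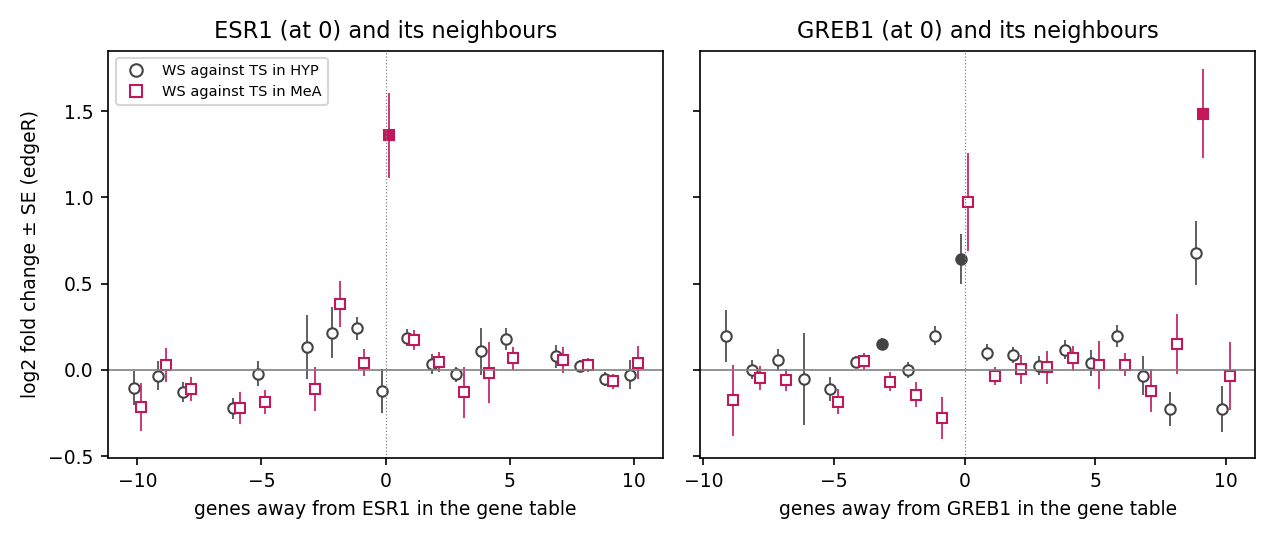
Log2 fold change of WS over TS with its SE for ESR1 (left), GREB1 (right) and the counted genes up to 10 places away on either side, by place in the gene table, in HYP (circles) and MeA (squares), filled where the edgeR adjusted p was under 0.05. ESR1 in MeA (1.36) stands above its neighbours, whose values lie between −0.22 and 0.38, and near GREB1 the values of RRM2 are 0.68 in HYP and 1.48 in MeA.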

How the data were processed

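Read counts per gene came from the authors' deposited table of raw counts for 38 libraries of 19 birds; 2 columns of a bird not among the samples listed were not used. The authors also deposited variance-stabilized values on a log2 scale for each region, used here in alternative fits only. The submitters' processing notes name STAR, HTSeq, DESeq2, Novoalign, SAMtools and GATK, without saying what each did. The genome build, the use of strand and the handling of reads shared by similar genes (such as GREB1 and GREB1L) are, in the sources used here, not given. Nor is the treatment of ZAL2m sequence, and whether reads mapped alike in both morphs was not tested.

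The 2 genes and the gene lists were chosen with earlier results of these data known. Counts were tested over all genes with edgeR 4.0.16 in R 4.3.3 (TMM, filterByExpr, quasi-likelihood F test), with Benjamini-Hochberg adjustment over all genes tested and calls at an adjusted p under 0.05. Morphs were compared within a region with morph alone in the model, age class and stage with morph as a covariate, and regions in 1 fit to the 38 libraries, blocked by bird. The pairing comes from the band number in the titles. Over 10158 genes, each library's departures from the mean of its group had their highest correlation with those of the same bird's other region in 19 of 19 birds (r of 0.257 to 0.516). A standard error (SE) is the size of the log2 fold change divided by the root of its F statistic. Printed CPM are on TMM-scaled library sizes over all 38 libraries, and folds can differ from their ratios.

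Correlations, on log2(CPM + 0.5), were tested by permutation (exact with 9 birds, 100000 resamples with 10 or more) in Python with SciPy. The genes named besides ESR1 and GREB1 were the 5 most alike in HYP, the 2 nearest neighbours on each side, called neighbours and list members, up to 6 list members by smallest p in each regional contrast, and PGR, ESR2, CYP19A1 and GREB1L; a list member that this rule names is not reported here. Identifiers were matched to the gene table by symbol (10990 genes) or gene ID (1583 genes), and 2538 had no place. Alternatives were other scaling, no filter, DESeq2 1.42.0, limma 3.58.1, added covariates, stage E birds alone, robust dispersions and leaving out each bird. Among the edgeR fits, covariates were added only to those within a region, not to those between regions.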

Additional observations from a re-analysis of the deposited data

Results flagged for a closer look

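The test of a morph difference in the regional contrast of ESR1 passed, close to the threshold. The log2 fold change of HYP over MeA was 3.51 in WS and 4.99 in TS, and the test of the difference itself gave −1.48 with an SE of 0.259 (edgeR adjusted p = 0.0377). The call was lost when any of 14 of the 19 birds was left out (edgeR adjusted p up to 0.140), in stage E birds (0.294), without the birds at the ends of the first principal component (0.176) and with limma-voom and the bird as a random effect (0.169). The MeA levels behind it rest on 7 to 27 ESR1 counts per library in WS and 2 to 11 in TS. Age class was not taken into account in any fit of this contrast. Dixon's test sets the gap between an extreme bird and the next against the range of its group. No bird passed it in any of the 8 combinations of gene, morph and region. The closest was the highest TS bird for ESR1 in MeA, at 0.454 against a critical value of 0.493. With 9 or 10 birds per group, not passing does not show that no bird was distant.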

How the results depend on the processing

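The regional differences of both genes kept their calls in both morphs under all alternatives run. The higher GREB1 of WS in HYP kept its direction throughout, but its call was lost with age class in the model (log2 fold change 0.66, edgeR adjusted p = 0.163), with stage as a covariate (0.60, 0.0552), in stage E birds alone (0.73, 0.0674) and with robust dispersions (0.64, 0.0712); leaving out single birds gave 0.58 to 0.71. The higher ESR1 of WS in MeA lost its call with age class as a covariate (1.27, edgeR adjusted p = 0.125), in stage E birds alone (1.36, 0.166) and without the 2 birds at each end of the first principal component, an alternative added after seeing the data (1.28, 0.0794); leaving out single birds gave 1.27 to 1.54 and no lost call. On the deposited variance-stabilized scale, which compresses low levels, this difference was 0.26 and that of GREB1 in HYP 0.50, both still called with limma. The morph difference in the regional contrast of ESR1 was −1.47 in stage E birds (edgeR adjusted p = 0.294), −1.34 without the ends of the first component (0.176) and −1.47 with limma-voom and the replicate block as a random effect (0.169). With no replicate block it was −1.48 (edgeR adjusted p = 0.017). Leaving out single birds gave −1.62 to −1.35. For GREB1 the same difference was 0.0038 without the ends of the first component. No bird is in both morphs, so no replicate block was possible between morphs.

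Uncalled contrasts changed sign in places. For age class in HYP, ESR1 was −0.0044 and GREB1 0.35 with morph left out of the model, and GREB1 was 0.016 in TS alone and 0.013 in stage E birds; in MeA, WS alone gave −0.24 for ESR1 and −0.031 for GREB1. Leaving out single birds gave, for age class, −0.028 to 0.23 (ESR1) and −0.064 to 0.019 (GREB1) in HYP and −0.17 to 0.44 (ESR1) and −0.083 to 0.28 (GREB1) in MeA, and for stage −0.016 to 0.13 in HYP and −0.18 to 0.14 in MeA for ESR1, and −0.35 to −0.15 in HYP and −0.46 to −0.14 in MeA for GREB1. Without the 2 farthest birds, r between the genes was 0.039 in HYP and −0.29 in MeA of TS birds, and r of ESR1 between regions was −0.058.

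The numbers of genes called also moved. In HYP the 95 calls between morphs became 51 with age class, 45 in stage E birds and 62 without the ends of the first component. In MeA the 61 became 118 with DESeq2, 21 with age class, 16 in stage E birds and 30 without those ends. The 3 calls on the morph difference in the regional contrast became 16 with DESeq2 and 0 without those ends. For age class in HYP the 0 calls became 1 with no filter and 1 with DESeq2. For stage they became 14 with DESeq2, 1 with age class added and up to 2 with single birds left out in HYP, and 1 with no filter in MeA. The MeA values rest on a mean of 9.79 ESR1 and 17.5 GREB1 counts per library.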
